A study of Mus musculus with 14 samples.

Results

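The insulin-like growth factor (IGF) system was described here through 10 genes: the ligands Igf1 and Igf2, the receptors Igf1r and Igf2r, and the binding proteins Igfbp2, Igfbp3, Igfbp4, Igfbp5, Igfbp6 and Igfbp7. They were taken by name, as a gene family, from the 40853 genes of the deposited tables, with earlier results of these data known. Levels are given as TPM, a share of the library's transcripts that is corrected for gene length. The limit for testing was an average of 1 TPM across the 14 libraries, which 5 of the 10 genes and 12927 genes in all reached.

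RNA was sequenced from αTN4-1, a mouse lens epithelial line immortalised by a viral T antigen transgene. Cells of 7 stable lines were compared after 24 h with 20 ng/mL TGFβ in medium without serum (1 library per line) and as control (1 library per line). The lines were labelled S133A-CREB, S133A-KCREB, S133A/R314A-CREB, WT-CREB, KCREB, R314A-CREB and Vector, and all grew under neomycin selection in medium with serum, although the growth protocol names neither line labelled with K. CREB, a transcription factor, recognises cAMP response elements in DNA. S133A takes away its protein kinase A site, R314A lies in the basic leucine zipper (bZIP) region and blocks CRTC coactivators, and the K form is a dominant negative that cannot bind DNA. Whether the controls also lacked serum is not in the labels, so that TGFβ and serum withdrawal cannot be told apart, and neither is whether a line is 1 clone or a pool. Because each line and treatment has 1 library, the lines are the replicates for TGFβ and construct effects, whose p-values describe the spread between lines. No p-value describes the spread between repeat cultures.

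IGF1 and IGF2 signal through the IGF1 receptor, a tyrosine kinase that acts through the IRS adaptors, PI3 kinase and AKT. The IGF2 receptor, which is also the mannose 6-phosphate receptor for lysosomal enzymes, takes IGF2 up for degradation and does not signal as a kinase. The binding proteins IGFBP1 to IGFBP6 hold IGFs with high affinity and so limit or prolong their action, and secreted proteases cut them; IGFBP7 binds IGFs weakly and is found in the extracellular matrix. In the lens, IGFs support survival of epithelial cells and differentiation into fiber cells.

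Per-base coverage per unit of FPKM, a measure of sequencing depth, was 5.05 to 10.1 over the 14 libraries, 12545 to 13081 genes per library reached 1 TPM, and 19322 to 22145 were listed at 0. Creb1 was below Vector in 4 lines labelled with a CREB form, and whether its level counts transcripts of the constructs was not tested. It had 38.3 and 34.0 TPM (TGFβ and control) in the line labelled S133A-KCREB and 30.1 and 25.8 in the line labelled KCREB, against 23.1 and 20.8 TPM in the Vector line. In the lines labelled WT-CREB, R314A-CREB, S133A-CREB and S133A/R314A-CREB it lay between 4.43 and 11.6 TPM, below Vector, and lines are called here only as labelled. Of 10 markers of lens epithelium, 7 had a mean of at least 1 TPM, among them Pax6, Six3, Cdh2 and Cryab, but Foxe3 and Cdh1 were below 1 TPM in every library. The summed level of this list was 551 to 941 TPM with TGFβ and 645 to 2335 TPM in control. Of 8 lens fiber markers 2 reached a mean of 1 TPM, and of 8 fibroblast markers 4 did, with sums of 127 to 532 TPM with TGFβ and 80.5 to 449 TPM in control. Of these 4, Pdgfrb had 101 to 333 TPM with TGFβ and 70.3 to 297 TPM in control, and Col1a1 reached 153 TPM. Dcn was at or below 0.138 TPM, and Lum and Thy1 were at 0. Of 6 macrophage markers 4 had a mean of at least 1 TPM (sums of 18.6 to 52.3 with TGFβ and 29.5 to 93.2 in control). Lyz2 reached 86.8 TPM, and Adgre1 was at 0. Of 6 muscle markers 2 had such a mean, with Des up to 28.4 TPM and Myod1 and Myog at 0. So did 2 of 6 pigment cell markers, 1 of 6 endothelial markers and 3 of the 5 corneal markers in the files. The corneal list, which also holds Pax6, summed to 202 to 1015 TPM with TGFβ and 603 to 2345 TPM in control. In it, Aldh3a1 had 96.9 to 944 TPM with TGFβ and 275 to 2276 TPM in control. Krt12 and Krt5 were below 1 TPM in every library. The part of such shifts in the results below was not tested.

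Promoters are shown first for the 4 genes with the highest mean levels, since the lines carry forms of a DNA-binding factor and TGFβ signals through Smad factors. Each sequence is the RefSeq promoter on GRCm38.p6, 250 bases before and 50 bases after a start site, written 5′ to 3′ along the gene. Capitals mark the core of a cAMP response element (TGACG), a Smad element (CAGAC) or a loose AP-1 pattern (TGANTCA) on either strand. N stands for any base, so TGANTCA also takes in forms outside the AP-1 consensus. The Igfbp2 promoters lie at chr1:72824230-72824529 and chr1:72825137-72825436 and the Igf1r promoter at chr7:67952007-67952306, all on the plus strand. The Igfbp7 promoter lies at chr5:77407996-77408295 and the Igf2r promoter at chr17:12769657-12769956, both on the minus strand.
Igfbp2, first start site: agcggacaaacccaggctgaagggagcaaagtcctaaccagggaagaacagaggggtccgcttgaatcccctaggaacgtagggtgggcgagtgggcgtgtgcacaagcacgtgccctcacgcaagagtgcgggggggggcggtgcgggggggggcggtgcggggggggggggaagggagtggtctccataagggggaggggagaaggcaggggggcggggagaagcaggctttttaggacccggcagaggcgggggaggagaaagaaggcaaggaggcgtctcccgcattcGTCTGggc
Igfbp2, second start site: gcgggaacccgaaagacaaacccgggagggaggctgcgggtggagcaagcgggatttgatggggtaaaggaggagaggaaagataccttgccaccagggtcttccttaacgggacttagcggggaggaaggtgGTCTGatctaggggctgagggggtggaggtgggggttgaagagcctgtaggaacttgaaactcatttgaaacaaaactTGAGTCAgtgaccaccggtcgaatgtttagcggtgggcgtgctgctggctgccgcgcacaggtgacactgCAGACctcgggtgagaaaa
Igfbp7: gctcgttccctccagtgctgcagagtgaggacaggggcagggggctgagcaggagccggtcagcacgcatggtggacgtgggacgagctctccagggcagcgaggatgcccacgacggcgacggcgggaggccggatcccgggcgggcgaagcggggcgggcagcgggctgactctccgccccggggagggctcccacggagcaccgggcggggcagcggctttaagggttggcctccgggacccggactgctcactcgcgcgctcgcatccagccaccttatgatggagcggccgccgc
Igf1r: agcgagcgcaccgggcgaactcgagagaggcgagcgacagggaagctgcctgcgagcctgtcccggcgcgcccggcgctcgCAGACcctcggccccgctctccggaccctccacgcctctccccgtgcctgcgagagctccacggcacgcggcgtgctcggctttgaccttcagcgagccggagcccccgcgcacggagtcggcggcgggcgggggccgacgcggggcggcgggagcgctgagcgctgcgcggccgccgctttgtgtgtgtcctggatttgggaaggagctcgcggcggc
Igf2r: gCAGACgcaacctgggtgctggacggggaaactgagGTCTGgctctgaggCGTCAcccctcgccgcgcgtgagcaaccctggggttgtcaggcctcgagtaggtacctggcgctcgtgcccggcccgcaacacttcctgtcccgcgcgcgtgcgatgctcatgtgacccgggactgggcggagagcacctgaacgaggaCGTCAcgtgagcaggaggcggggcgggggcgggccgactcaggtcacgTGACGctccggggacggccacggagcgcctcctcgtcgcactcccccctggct

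All 10 genes matched the RefSeq table, with 14 promoters, of which Igf2 has 4. None of the 14 held the full cAMP response element TGACGTCA, which 1.79% of all 32851 promoters in the table held on either strand, nor the palindromic Smad element GTCTAGAC, which 0.213% held. The core TGACG, which is part of the full element, was in 3 of the 14 promoters, against 20.8% of all promoters. Igf2r carried it at 3 places, the nearest 3 bases before the start site, and of the 4 Igf2 promoters 2 carried it once each. CAGAC was in 8 of the 14, against 49.6% of all promoters. TGANTCA was in the second Igfbp2 promoter, as TGAGTCA 39 bases before the start site, against 7.81% of all promoters with any base at N. It was also in the Igf1 promoter, as TGAATCA, which is not the AP-1 consensus. The Igfbp7 promoter held none of the 5 motifs. GC content was 76.0% for Igf1r, 73.3% for Igfbp7, 70.7% for Igf2r and 57.3% for the second Igfbp2 promoter, against a median of 52.7% for all promoters. A match is only a run of letters, and no binding was measured.

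On the TPM scale, Igfbp7 was the most abundant transcript of the system and Igfbp2 the second, followed by Igf2r, Igf1r and Igf1. The means over 14 libraries were 668, 283, 99.6, 39.0 and 1.46 TPM. The other 5 genes had means below 1 TPM. The coverage column of the same tables gave Igfbp2 a lower place. Its coverage per unit of FPKM was 0.0524 times (lowest) to 0.0525 times (highest) the most frequent ratio of its library, a ratio at or below 0.1 being found for 2.80% of tested genes, while Igfbp7 was at 0.924 to 0.926, Igf1 at 0.539 to 0.543, Igf1r at 0.414 to 0.421 and Igf2r at 1.00. Multiplied by this ratio (the coverage scale), Igfbp2 stood at 2.61 to 47.9 TPM over the libraries instead of 49.9 to 913. The ratio is nearly constant over libraries, so plain ratios of Igfbp2 between libraries barely move with it, and its TGFβ and line calls held on the coverage scale, but its rank among the genes moves. The cause was not tested.

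**Figure D1:**
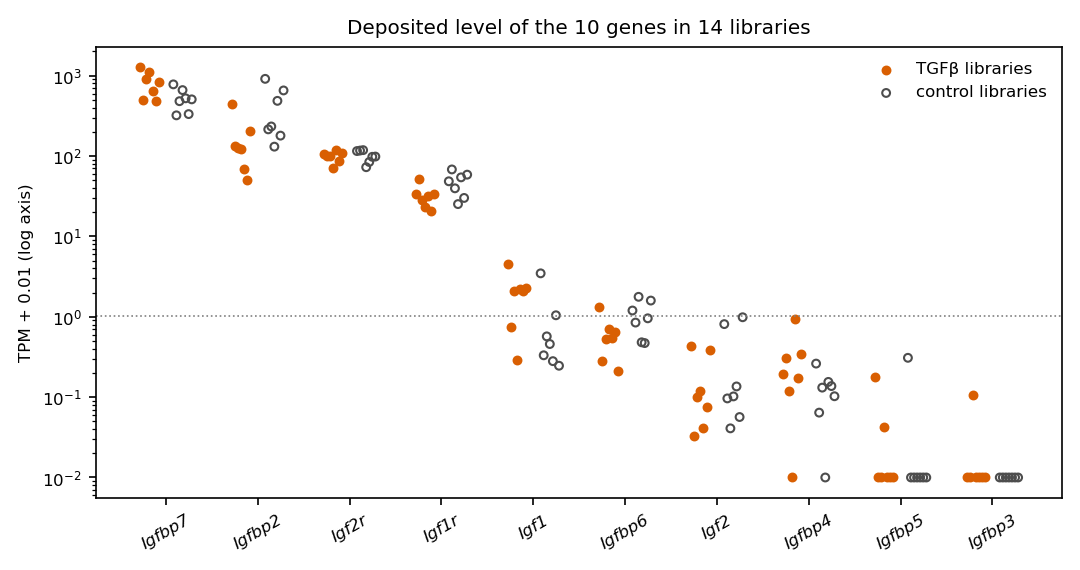
Level of the 10 genes in 14 libraries, as TPM + 0.01 on a log axis, genes ordered by their mean. Filled points are the 7 TGFβ libraries and open points the 7 control libraries; the dotted line is at 1 TPM. Igfbp7, Igfbp2, Igf2r and Igf1r lie above 1 TPM in all 14 libraries, Igf1 in 7, and Igfbp3 is at 0 in 13.

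Cells given TGFβ were first compared with control cells, with the difference within each line as the replicate. Igfbp7 rose, Igfbp2 and Igf1r fell, and Igf2r did not pass the test. Igf1 was called higher as well, but it reached the limit for testing through its TGFβ libraries. Thus 2 of the 5 tested genes were called higher and 2 lower, where 24.1% of all tested genes were called higher and 21.4% lower, 45.4% in either direction (limma, Benjamini-Hochberg adjusted p under 0.05 over all 12927). The median difference of the 5 genes was -0.03 on the log2(TPM + 1) scale, and that of all genes 0.02. All 4 calls held with each line left out in turn. The genes tested were not chosen anew in these runs, so the filter favoured Igf1 in them too. In bulk RNA, fewer cells of a type and less RNA per cell cannot be told apart.

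Igfbp2 (chr1:72863639-72891633, plus strand, GRCm39), a high-affinity binding protein that prefers IGF2, had the largest difference of the 5 tested genes on the log2(TPM + 1) scale. It had 446 TPM with TGFβ and 913 TPM in control in the S133A-CREB line, and in the same order of treatments 134 and 215 TPM in S133A-KCREB, 124 and 233 in S133A/R314A-CREB, and 122 and 131 in WT-CREB. In KCREB it had 68.4 TPM with TGFβ and 486 in control, in R314A-CREB 49.9 and 179.5, and in Vector 205 and 655. The ranges overlapped between treatments, because the lines differ, but every line was lower with TGFβ than in its own control, as were 15.9% of all tested genes. Igfbp2 averaged 164 ± 134 TPM with TGFβ and 402 ± 294 TPM in control (SD, n = 7 each). The difference within lines was -1.29 ± 0.27 (log2, SE; 95% interval -1.89 to -0.69; adjusted p = 0.00438, limma). The lines spread widely around it: the difference was -2.81 in KCREB, -1.83 in R314A-CREB, -1.67 in Vector and -1.03 in S133A-CREB, but -0.90, -0.68 and -0.10 in S133A/R314A-CREB, S133A-KCREB and WT-CREB. KCREB thus had 85.9% less Igfbp2 with TGFβ and WT-CREB 6.76% less.

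Igfbp7 (chr5:77497087-77555892, minus strand), a matrix-associated binding protein, rose in all 7 lines, as 18.5% of all tested genes were higher in all. With TGFβ and in control it had 1264 and 779.8 TPM in S133A-CREB, 491 and 321 in S133A-KCREB, 915 and 482 in S133A/R314A-CREB, and 1113 and 662 in WT-CREB. With TGFβ and in control it had 637 and 523 TPM in KCREB, 479.8 and 333 in R314A-CREB, and 846 and 507 in Vector. The treatments overlapped across lines, and each line was higher with TGFβ. Igfbp7 averaged 821 ± 303 TPM with TGFβ and 515 ± 165 TPM in control (SD, n = 7 each), and the rise was 0.65 ± 0.07 (log2, SE; 95% interval 0.49 to 0.80; adjusted p = 0.000268, limma). Its differences were closer together than those of Igfbp2, with 0.29 in KCREB the lowest and 0.93 in S133A/R314A-CREB the highest. KCREB, the line with the largest Igfbp2 difference, thus had the smallest for Igfbp7. Igfbp7 overlaps the oppositely transcribed Polr2b by 89 bases.

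Igf1 (chr10:87694127-87772909, plus strand), the ligand of the IGF1 receptor, was close to the limit for testing. With TGFβ it had 4.50 TPM in S133A-CREB, 0.734 in S133A-KCREB, 2.10 in S133A/R314A-CREB, 0.279 in WT-CREB, 2.18 in KCREB, 2.06 in R314A-CREB and 2.26 in Vector. In control it had 3.46 TPM in S133A-CREB, 1.03 in R314A-CREB, and between 0.236 and 0.560 TPM in the other 5 lines. It was higher with TGFβ in 6 of 7 lines, lower in WT-CREB, and above 2 TPM in 5 TGFβ libraries against 1 control library. Igf1 averaged 2.01 ± 1.35 TPM with TGFβ and 0.904 ± 1.16 TPM in control (SD, n = 7 each). The difference was 0.69 ± 0.19 (log2, SE; 95% interval 0.26 to 1.12; adjusted p = 0.0160, limma), on a scale that understates the change of low genes: the TPM ratio was 9.57 in Vector and 8.04 in KCREB. Because only the TGFβ mean was above the limit of 1 TPM, the filter favoured a higher value with TGFβ, and the call is given as a description. It was lost, with an adjusted p of 0.0531, when all genes above 0 were tested. Per-base coverage of Igf1 was 0.270 in the lowest library and 7.62 in the highest.

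Igf1r (chr7:67601486-67883416, plus strand), the signalling receptor, fell. Its level with TGFβ and in control was 33.3 and 48.5 TPM in S133A-CREB, 51.9 and 68.1 in S133A-KCREB, 28.1 and 39.6 in S133A/R314A-CREB, and 23.4 and 25.2 in WT-CREB. In KCREB it was 31.4 TPM with TGFβ and 54.3 in control, in R314A-CREB 20.7 and 30.1, and in Vector 33.2 and 58.7. The treatments overlapped across lines, and all 7 lines were lower with TGFβ. Igf1r averaged 31.7 ± 10.1 TPM with TGFβ and 46.4 ± 15.5 TPM in control (SD, n = 7 each), a difference of -0.51 ± 0.08 (log2, SE; 95% interval -0.69 to -0.33; adjusted p = 0.00112, limma). Vector and KCREB had the lowest differences, -0.80 and -0.77, and these lines also had the highest Igf1 differences, 1.40 and 1.32. WT-CREB had the difference nearest 0, -0.10.

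Igf2r (chr17:12901293-12988593, minus strand), the clearance receptor, was 70.3 to 118 TPM with TGFβ (median 101) and 72.6 to 118 TPM in control (median 98.5). The treatments overlapped almost wholly. It averaged 98.5 ± 15.8 TPM with TGFβ and 101 ± 17.6 TPM in control (SD, n = 7 each), a difference of -0.03 ± 0.08 (log2, SE; adjusted p = 0.817, limma) whose 95% interval of -0.22 to 0.16 holds changes of either sign. KCREB had 118 TPM with TGFβ and 84.4 TPM in control, the largest difference (0.48), Vector was also higher with TGFβ, and the other 5 lines were lower. Igf2r shares 28396 bases with the antisense transcript Airn, and the strandedness of the libraries is not given in the sources used here, so reads of that stretch cannot be told apart.

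**Figure D2:**
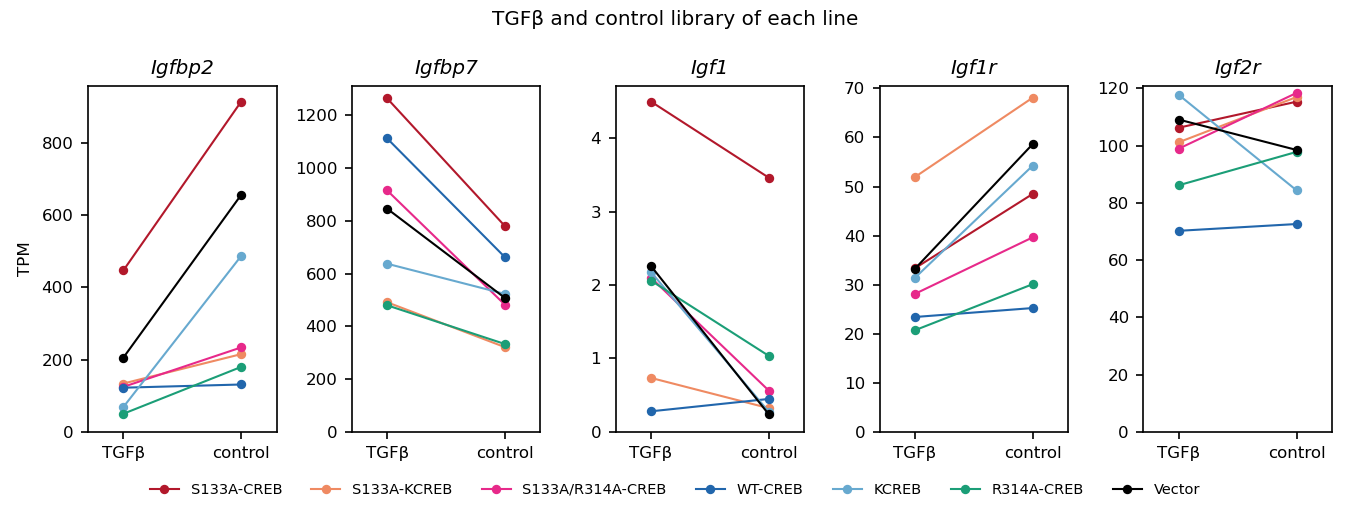
TPM of the 5 tested genes in the TGFβ library (left) and the control library (right) of each line, joined by a line and coloured by line, with axes from 0. Igfbp2 and Igf1r are lower and Igfbp7 is higher with TGFβ in all 7 lines, Igf1 is higher in 6, and Igf2r is higher in 2.

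Single lines have 1 library per treatment, so differences of 2-fold or more on the log2(TPM + 1) scale were only counted. Igfbp2 was lower by this much in KCREB, R314A-CREB, Vector and S133A-CREB, and Igf1 was higher by this much in Vector and KCREB. As a plain TPM ratio, Igf1 was also past 2-fold in S133A/R314A-CREB (3.75) and S133A-KCREB (2.28). Of all tested genes, 4.16% in KCREB, 2.88% in R314A-CREB, 3.25% in Vector, 1.8% in S133A-CREB, 2.66% in S133A-KCREB and 2.92% in S133A/R314A-CREB were lower by this much. The shares of genes higher by this much were 3.45% in KCREB, 2.06% in R314A-CREB, 2.74% in Vector, 1.18% in S133A-CREB, 1.83% in S133A-KCREB and 2.05% in S133A/R314A-CREB. In WT-CREB, none of the 5 genes was past 2-fold, and of all tested genes 0.82% were higher and 0.828% lower by this much, the lowest shares of the 7 lines. The differences in WT-CREB were -0.10 for Igfbp2 and Igf1r, -0.18 for Igf1 and -0.05 for Igf2r, against 0.75 for Igfbp7. In S133A-KCREB and S133A/R314A-CREB none of the 5 genes was past 2-fold on the log2(TPM + 1) scale either.

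**Figure D3:**
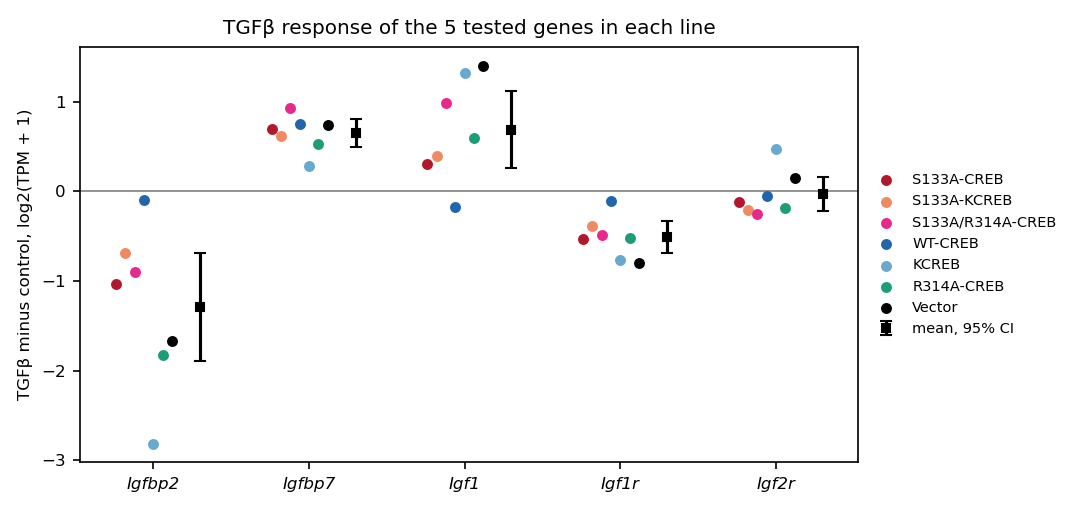
Difference between the TGFβ and the control library of each line for the 5 tested genes, in log2(TPM + 1). Points are lines, coloured as in the legend, and squares with bars are the mean over 7 lines and its 95% interval. The Igfbp2 points spread from -2.81 to -0.10 and the Igfbp7 points from 0.29 to 0.93.

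The 5 genes below the limit were not tested. Igfbp6, a binding protein with a preference for IGF2, was highest among them, with 1.76 TPM in the S133A/R314A-CREB control library and at least 1 TPM in 4 libraries. With TGFβ it had a median of 0.527 TPM (0.201 to 1.32), against 0.947 TPM in control (0.461 to 1.76), and the ranges overlapped. Igf2, the fetal growth factor, had a median of 0.0903 TPM with TGFβ (0.0231 to 0.419) and 0.0921 TPM in control (0.0309 to 0.976). Its higher values were in 2 lines: Vector, with 0.375 TPM with TGFβ and 0.976 in control, and S133A-CREB, with 0.419 and 0.80. Igfbp4 had a median of 0.184 TPM with TGFβ and 0.121 TPM in control, was at 0 in both WT-CREB libraries, and reached its highest level, 0.933 TPM, in KCREB with TGFβ. Igfbp5 was at 0 in 11 of 14 libraries, its highest level being 0.298 TPM in the S133A-CREB control library. Igfbp3, the main IGF carrier of serum, was at 0 in 13 of 14 libraries and at 0.0957 TPM in the other. Igfbp5 lies 5590 bases from Igfbp2 on chromosome 1, so these neighbours had very different levels. A value of 0 in these tables may also mean that estimation failed.

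The second question was how levels differ between the lines. An F test set the lines against the spread left after the line and treatment means. That spread includes differences between lines in the response to TGFβ, and the 2 libraries of a line are not repeat cultures. All 5 genes differed between lines (limma F test, adjusted p of 0.00996 for Igfbp2, 0.000185 for Igfbp7, 0.0162 for Igf1, 0.000701 for Igf1r and 0.0432 for Igf2r), as did 71.4% of all tested genes. S133A-CREB had the highest mean of its 2 libraries for Igfbp2, Igfbp7, Igf1 and Igf2r, and WT-CREB had the lowest for Igf1, Igf1r and Igf2r. Without S133A-CREB, 2 of the 5 genes were called, the adjusted p being 0.0983 for Igfbp2, 0.277 for Igf1 and 0.0617 for Igf2r. Igf2r was also lost without WT-CREB (adjusted p = 0.631) and without S133A-KCREB (0.0543).

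Igfbp2 ranged over 2.74 on the log2 scale between line means, more than 96.1% of tested genes, in the order S133A-CREB (680 TPM), Vector (430.2), KCREB (277), S133A/R314A-CREB (179), S133A-KCREB (174), WT-CREB (126) and R314A-CREB (115). No neighbours in that order differed beyond the spread. The order of lines was taken from the same values, and the 95% intervals of gaps between neighbours are unadjusted. For all 5 genes these gaps are therefore descriptions. Igf1 ranged over 1.86, led by S133A-CREB with 3.98 TPM, which lay above the next line, R314A-CREB with 1.55 TPM, by 0.99 (log2; 95% interval 0.19 to 1.79). Its other neighbours did not differ beyond the spread, down to WT-CREB with 0.364 TPM.

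Igfbp7 ranged over 1.32 between line means, in the order S133A-CREB (1022 TPM), WT-CREB (887), S133A/R314A-CREB (698), Vector (677), KCREB (580.1), R314A-CREB (406.3) and S133A-KCREB (406.2). Of these neighbours, WT-CREB lay above S133A/R314A-CREB by 0.37 (95% interval 0.08 to 0.66) and KCREB above R314A-CREB by 0.53 (0.24 to 0.82). Igf1r ranged over 1.26, in another order: S133A-KCREB (60.0 TPM), Vector (46.0), KCREB (42.8), S133A-CREB (40.9), S133A/R314A-CREB (33.9), R314A-CREB (25.4) and WT-CREB (24.3). S133A-KCREB lay above Vector by 0.42 (0.09 to 0.76) and S133A/R314A-CREB above R314A-CREB by 0.41 (0.07 to 0.74). The line with the highest Igf1r, S133A-KCREB, had the lowest Igfbp7, but only by 0.01 below R314A-CREB (95% interval -0.28 to 0.30). R314A-CREB was itself the second lowest line for Igf1r. Igf2r ranged over 0.63 only, below the range of most tested genes (41.0th percentile), with 111 TPM in S133A-CREB the highest and WT-CREB, at 71.4 TPM, below R314A-CREB at 92.0 by 0.36 (0.01 to 0.71).

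**Figure D4:**
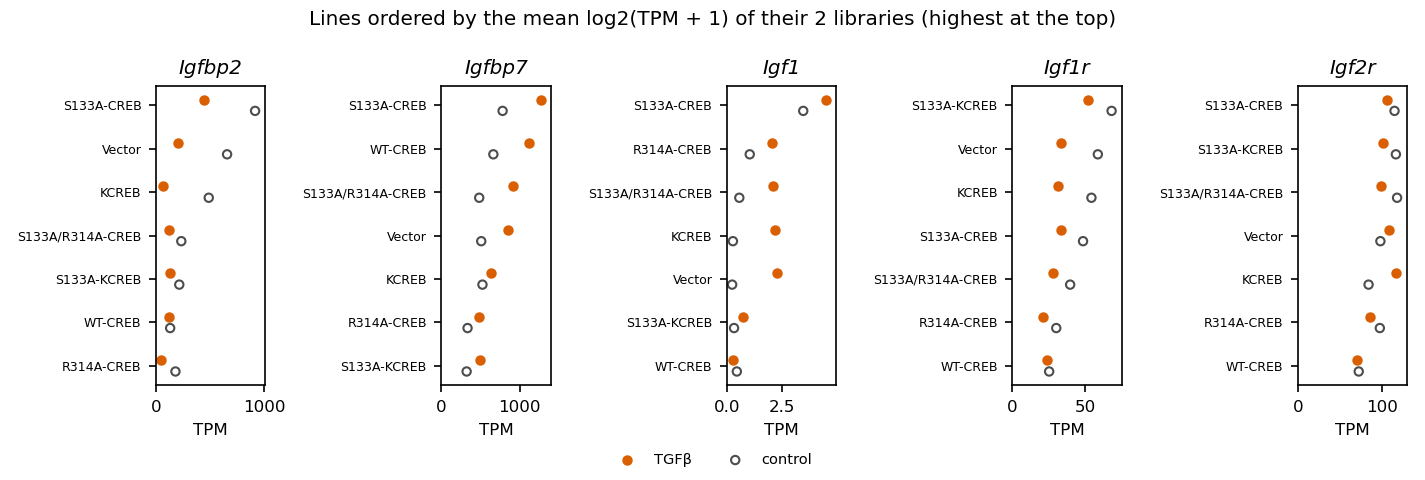
Lines ordered for each gene by the mean log2(TPM + 1) of their 2 libraries, highest at the top, with TPM on the x axis from 0. Filled points are TGFβ libraries and open points control libraries. S133A-CREB is at the top for 4 of the 5 genes, though for Igf2r by 0.03 (log2) only, and WT-CREB is at the bottom for 3.

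The design also crosses S133A with the state of the bZIP region (K, R314A or intact) in 6 lines, with Vector left out. No gene of the series passed the test for S133A, K or R314A (0% called of 12927, limma), so none of the 5 genes was called. An unadjusted p under 0.05 was found for 753, 1310 and 821 genes, where chance alone gives about 0.05 of the 12927. With single lines left out, up to 10 genes were called higher and 16 lower for K and up to 12 higher and 9 lower for R314A, none of them among the 5. Igf1r averaged 44.9 ± 13.5 TPM in the 3 S133A lines and 30.9 ± 10.4 TPM in the 3 lines without S133A (SD of line means). Its difference at matched bZIP state was 0.54 ± 0.15 (log2, SE; 95% interval 0.17 to 0.92; adjusted p = 0.809). Igf1r averaged 51.4 ± 12.2 TPM in the 2 K lines and 32.6 ± 11.7 TPM in the 2 lines with an intact bZIP region (difference 0.65 ± 0.18; 0.19 to 1.11; adjusted p = 0.371). Igfbp7 went the other way, with 493 ± 123 TPM in the K lines, 552 ± 207 TPM in the R314A lines and 955 ± 95.4 TPM in the intact lines. Its difference to the intact lines was -0.95 ± 0.32 for K (-1.76 to -0.13; adjusted p = 0.443) and -0.84 ± 0.32 for R314A (-1.66 to -0.02; adjusted p = 0.785). The other 11 of these 15 differences had intervals that spanned 0. Igf2r had 109.6 ± 1.13 TPM in the S133A lines and 88.2 ± 15.2 TPM in the lines without S133A.

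The response to TGFβ was also compared between constructs. No gene passed for any of the 3 interactions (0% called; 455, 1392 and 829 genes with an unadjusted p under 0.05 for S133A, K and R314A), and none of the 5 genes had an unadjusted p under 0.05 in any of them. The mean Igfbp2 response was -0.87 in S133A lines and -1.58 in lines without S133A, and -1.75 in K lines, -1.37 in R314A lines and -0.57 in intact lines. These means rest on 3 or 2 lines each, with intervals of their differences that spanned 0, which does not show that the responses were alike. The mean Igf1r response was -0.46 with and without S133A.

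Genes around the IGF system were taken from 5 lists of 72 genes in all. Among other ligands, receptors and carriers, 3 of 8 genes were tested: 1 rose and 1 fell, with a median of -0.08. Beside this and the counts of the lists below, 24.1% of all tested genes were called higher and 21.4% lower, with a median of 0.02. The insulin receptor gene Insr fell, with 37.8 ± 7.06 TPM with TGFβ and 53.5 ± 11.8 TPM in control (-0.48 ± 0.06, log2, SE; adjusted p = 0.000590; lower in 7 of 7 lines), a difference of about the size of that of Igf1r. M6pr, the small mannose 6-phosphate receptor that sorts lysosomal enzymes but binds no IGF2, rose, with 165 ± 16.7 TPM with TGFβ and 146 ± 21.4 TPM in control (0.19 ± 0.05; adjusted p = 0.0122; 7 of 7 lines). Ghr, the growth hormone receptor gene, had 2.16 ± 5.22 TPM with TGFβ and 2.93 ± 7.18 TPM in control (-0.08 ± 0.12; adjusted p = 0.602). WT-CREB, with 19.2 TPM in control, carried both means, which without it were 0.181 TPM with TGFβ and 0.215 TPM in control. Ins1 and Ins2, the insulin genes, were at 0 in all 14 libraries, Igfals, the subunit that stabilises IGFs in serum, reached 0.577 TPM, and Igfbp1 was at 0 in 13 libraries and at 0.0795 TPM in the other.

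Of 8 genes for proteases that cut IGFBPs and their inhibitors, 4 were tested, 2 rose and 2 fell (24.1% and 21.4% of all tested genes), with a median of 0.44. Adam12, a membrane metalloprotease that cuts IGFBP3 and IGFBP5, had 29.9 ± 9.0 TPM with TGFβ and 13.6 ± 3.88 TPM in control (1.08 ± 0.09; adjusted p = 9.65e-05). Stc2, a secreted inhibitor of the pappalysin proteases, had 24.7 ± 12.9 TPM with TGFβ and 10.5 ± 4.91 TPM in control (1.07 ± 0.16; adjusted p = 0.000938). Both rose in 7 of 7 lines. Htra1, a secreted serine protease, was abundant and fell, with 463 ± 128 TPM with TGFβ and 699 ± 290 TPM in control (-0.54 ± 0.12; adjusted p = 0.00640), and Adam9 fell by less (-0.19 ± 0.04; adjusted p = 0.00290). The pappalysin genes Pappa and Pappa2, whose proteins between them cut IGFBPs that include IGFBP4 and IGFBP5, stayed below a mean of 1 TPM. Their maxima were 1.41 and 2.19 TPM. The substrates named here, Igfbp3, Igfbp4 and Igfbp5, were below 1 TPM in every library. They are not a full list of the substrates of these proteases.

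Of 11 genes for proteins that share the IGFBP domain, 7 were tested, 2 rose and 3 fell (24.1% and 21.4% of all tested genes), with a median of -0.14. Ccn2, a matrix protein long known as a TGFβ target, had 743 ± 238 TPM with TGFβ and 168 ± 90.8 TPM in control (2.20 ± 0.24; adjusted p = 0.000268). Ccn4 had 556 ± 194 TPM with TGFβ and 254 ± 141 TPM in control (1.28 ± 0.16; adjusted p = 0.000433), and both rose in 7 of 7 lines. Ccn3 fell in 7 of 7 lines (-0.97 ± 0.13; adjusted p = 0.000600). Ccn5, which lacks the carboxy-terminal domain of the family, had 339 ± 120 TPM with TGFβ and 681 ± 200 TPM in control (-1.04 ± 0.21; adjusted p = 0.00403; lower in 6 of 7 lines). The family was thus split in direction, with Ccn1 also lower (-0.36 ± 0.12; adjusted p = 0.0364; lower in 5 of 7 lines). The count that fell was 2 without Vector, KCREB, R314A-CREB or S133A-CREB. It was also 2 with no filter and without the line as a block. Ccn3 and Ccn5 stayed called in each of these runs, so the call lost was that of Ccn1.

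Of 14 genes for RNA-binding proteins of the Igf2 transcript and for imprinted growth genes, 3 were tested and all 3 fell (21.4% of all tested genes), with a median of -0.51. Igf2bp2, which binds Igf2 and other mRNAs, had 3.42 ± 3.05 TPM with TGFβ and 9.62 ± 6.06 TPM in control (-1.32 ± 0.14; adjusted p = 0.000276; lower in 7 of 7 lines). Igf2bp1 had 12.9 ± 1.87 TPM with TGFβ and 17.3 ± 3.59 TPM in control (-0.38 ± 0.10; adjusted p = 0.0148). Airn, the noncoding antisense transcript that silences Igf2r on the paternal chromosome, had 6.92 ± 2.0 TPM with TGFβ and 10.0 ± 1.47 TPM in control (-0.51 ± 0.15; adjusted p = 0.0185). The Airn call was lost without R314A-CREB (adjusted p = 0.0501), without the filter (0.0662) and on the coverage scale (0.0745). The other 11 genes had means below 1 TPM.

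Receptor signalling was the largest list, with 29 of 31 genes tested, of which 7 rose, 13 fell and 9 did not pass (24.1% of all tested genes rose and 21.4% fell), with a median of -0.04. Irs1, the adaptor that couples the IGF1 and insulin receptors to PI3 kinase, fell most, with 10.8 ± 6.20 TPM with TGFβ and 31.0 ± 13.8 TPM in control (-1.47 ± 0.08; adjusted p = 2.32e-05; lower in 7 of 7 lines). Its homologue Irs2 had 65.7 ± 10.1 TPM with TGFβ and 66.2 ± 9.07 TPM in control (-0.01 ± 0.08; adjusted p = 0.892; lower in 4 of 7 lines). Pik3r1, the main regulatory subunit of PI3 kinase, fell (-0.59 ± 0.08; adjusted p = 0.000748), as did the adaptor gene Gab1 (-0.64 ± 0.11; adjusted p = 0.00156). Tsc2, a brake on mTOR signalling, fell by less (-0.26 ± 0.04; adjusted p = 0.000897). Pik3r2, Grb2 and Rheb were among those that rose, by 0.39 ± 0.09, 0.16 ± 0.03 and 0.22 ± 0.05. The count of genes that rose was 4 without Vector, KCREB or R314A-CREB, and the count that fell was 8 without Vector or S133A/R314A-CREB. Pik3r2, Grb2, Rheb, Irs2 and Ccn1 were named after their values were seen.

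**Figure D5:**
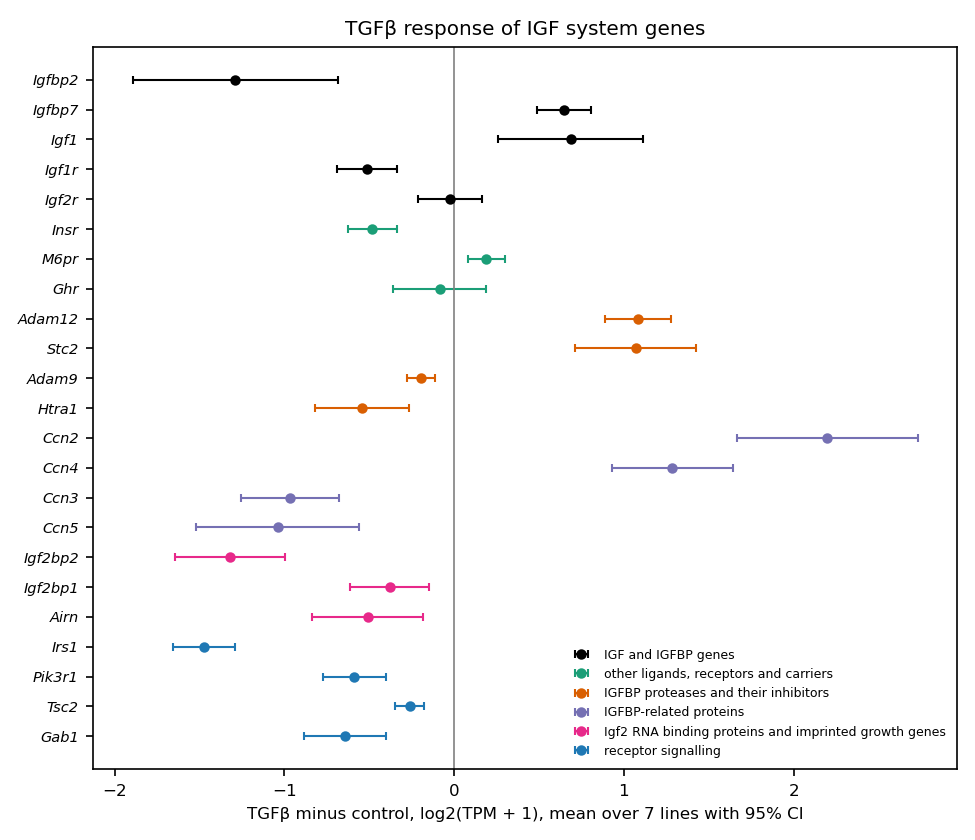
Mean TGFβ minus control difference over 7 lines in log2(TPM + 1) with its 95% interval, for the 5 tested IGF and IGFBP genes (black) and up to 4 genes with the smallest p of each list (coloured by list). Igf1r, Insr and Irs1 lie below 0, at -0.51, -0.48 and -1.47.

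The genes whose levels followed each abundant member most closely were named by Pearson's r over the 14 libraries among 10060 other genes. Those compared averaged 5 TPM or more, with predicted genes and pseudogenes left out. The likenesses are descriptions, since the 2 libraries of a line and all libraries of a treatment share their source. For Igfbp2 they were Snrk (0.96), Cst3 (0.94) and Plppr2 (0.92), and for Igfbp7 Atxn1l (0.93), Rps14 (0.93) and Nucb2 (0.88). For Igf1r they were Akap13 (0.97), Sspn (0.91) and Gng12 (0.90), and for Igf2r Slc25a30 (0.90), Abraxas2 (0.86) and Slc25a15 (0.85). By rank correlation, 1 of the 3 genes was the same for Igfbp2 and for Igfbp7, and 2 of 3 for Igf1r and for Igf2r. No member of the system was among these genes.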

How the data were processed

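RNA from 14 cultures was measured, grouped by sample title. Tools and build named in the submitters' processing notes, without roles, are StringTie 2.0.4, STAR 2.7.6a, edgeR and GRCm39. The authors deposited TPM, which sums to 1000000 per library. Each gene's FPKM and per-base coverage were also deposited, per the file headers. Lines sharing a gene identifier were summed. No counts are given, so no count model or counting interval was used, and depth is known only through coverage.

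Genes averaging 1 TPM or more were tested as log2(TPM + 1) with limma 3.58.1 (R 4.3.3), an intensity trend and the line as a block; p-values are two-sided, adjusted by Benjamini-Hochberg over all 12927 genes at 0.05. Construct effects were fitted on line means of 6 CREB lines, interactions on their differences. The label of a line pairs its 2 libraries: their deviations from the treatment means correlated with r of 0.614 to 0.845, against at most 0.371 with another line. Named genes were the 10 members, the 3 genes most alike to each with a mean of at least 5 TPM, and in each list up to 4 genes with the smallest p. The members and lists were chosen with earlier results of these data known. The code of the fits was run on simulated data. Whether construct effects of the sizes seen here could be detected was not tested. Coordinates of genes are GRCm39, as deposited.

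Other settings tried were quantile normalization, median-of-ratios scaling, FPKM, a pseudocount of 0.1 or 5, a filter at 5 TPM or none, no trend, each line left out, no block, an exact Wilcoxon test, control or TGFβ libraries alone for the constructs, and Spearman correlation. After the data were seen, TPM multiplied by the relative coverage per FPKM (the coverage scale) was added.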

Additional observations from a re-analysis of the deposited data

Results flagged for a closer look

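Igf1 in the control libraries stood out in 1 line. The S133A-CREB control library had 3.46 TPM, against 0.236 to 1.03 TPM in the other 6 control libraries, and on the log2(TPM + 1) scale the gap to the nearest of them was 0.612 of the whole range, above Dixon's 95% critical value for 7 values. Among the TGFβ libraries, Igf1 was also highest in this line, at 4.50 TPM. Of 15 sets of 7 values examined, this was the 1 past the limit, and chance passes about 1 in 20.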

How the results depend on the processing

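The directions of Igfbp2, Igfbp7, Igf1 and Igf1r with TGFβ held under every alternative run, with ranges of -1.49 to -1.03, 0.60 to 0.71, 0.25 to 1.27 and -0.58 to -0.46. The ranges mix the scales of different pseudocounts and FPKM, and include the median difference over lines from the exact Wilcoxon test. That test was judged by its unadjusted p. The calls of these genes held under all settings but the following. Without the replicate block, 645 genes were called higher and 519 lower, 0 of the 5 members in either direction, with adjusted p of 0.122, 0.123, 0.218 and 0.178. This fit leaves the spread between lines in the error, and in it 0 signalling genes rose and 2 fell. With no filter, or at a mean of 5 TPM where Igf1 is not tested, 1 member was higher. Igf2r turned to 0.00330 without S133A-KCREB and to 0.0115 without S133A/R314A-CREB (range with lines left out -0.111 to 0.0115), and Ghr to 0.0106 at a pseudocount of 0.1. With lines left out, 2 to 5 members differed between lines; with no filter the adjusted p was 0.0533 for Igfbp2, 0.0591 for Igf1 and 0.128 for Igf2r, and Igf2r was lost with quantile normalization (0.0593), FPKM (0.0605), no trend (0.0666) and the coverage scale (0.0519). Leaving out lines gave 0 to 10 genes higher and 0 to 16 lower for K, 0 to 12 and 0 to 9 for R314A, 0 to 8 and 0 to 7 for the K interaction and 0 to 1 higher for the R314A interaction. With FPKM, 5 of the 7 lines kept their place in the order of lines for Igfbp7, for Igf1 and for Igf2r. No scaling moved the median of all genes by over 0.1. Why these values moved was not tested, beyond fewer genes or lines entering the fit. Low coverage limits Igf1 and the 5 genes below 1 TPM.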

Other observations

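Of the list of Igf2 RNA-binding proteins and imprinted growth genes, 11 of 14 had a mean below 1 TPM. H19, the noncoding partner of Igf2, was at 0 in 6 libraries and reached 4.57 TPM in 1, while Dlk1, Meg3 and Peg3 were at or below 0.0110 TPM in every library. Grb14, an inhibitor of the insulin receptor, reached 3.44 TPM and was at 0 in 6 libraries. Of the IGFBP-related genes, Esm1 was at 0 in all 14 libraries.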
